A study of Canis lupus familiaris with 36 samples.

Results

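The members of the paired miR-23/27/24 clusters, miR-23a, miR-27a, miR-24, miR-23b and miR-27b, were followed in 12 cardiac libraries of formalin-fixed, paraffin-embedded (FFPE) dog tissue. They were chosen by name, as 5 of the 453 mature miRNAs of the count table, where they are written cfa-miR-23a, cfa-miR-27a, cfa-miR-24, cfa-miR-23b and cfa-miR-27b, and 1 entry per name was used. Each library holds small RNA from whole tissue of 1 dog, 6 with cardiac hemangiosarcoma (HSA), a malignant tumor of endothelial cells, and 6 control hearts collected at necropsy of dogs with no fatal tumor. By the study's criteria an HSA dog had gone home alive, lived for some days and later succumbed to the tumor. The study describes its HSA dogs as older than its controls and did not leave out dogs given chemotherapy, so age and earlier treatment cannot be told apart from the tumor in any difference below. The sample labels contradict themselves for all 12 libraries, because the treatment field gives each library the condition that its title does not. The groups below follow the title, and every direction would turn if the treatment field were right. By title, miRNAs typical of heart and skeletal muscle held 20.2% to 27.9% of the counts in the control libraries. In the HSA libraries they held 0.122% to 27.4%, which overlaps with the control range. The splenic libraries of the study were not analysed here.

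In vertebrates, a pair of related clusters each give rise to 1 primary transcript that is cut into a miR-23, a miR-27 and a miR-24. The a cluster makes miR-23a and miR-27a, the b cluster makes miR-23b and miR-27b, and miR-24 is the same mature molecule from either. The a and b forms of a miRNA are nearly identical and share their seed, the bases that pair with target transcripts, so they are thought to act on largely the same targets. The clusters are known for their expression in endothelium and in tissues rich in vessels, where miR-23 and miR-27 favor angiogenic sprouting by lowering Sprouty2 and Sema6A. In the heart, miR-24 is known as a brake on cardiomyocyte apoptosis and, in endothelial cells, on vessel growth, and miR-27 is also a repressor of the adipocyte regulator PPARG.

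In the dog, RefSeq's annotation of the assembly UU_Cfam_GSD_1.0 places the 3 genes of each cluster side by side. MIR23A, MIR27A and MIR24-2 lie between NANOS3 and ZSWIM4 and overlap no other gene, and MIR23B, MIR27B and MIR24-1 lie within C1H9orf3 and overlap FANCC. This assembly differs from the CanFam3.1 of the authors and was used only for which genes neighbor each other. The count table lists miR-24 under both of its precursors, mir-24-1 and mir-24-2, with equal counts in 12 of 12 libraries. The miR-24 reads could therefore not be assigned to a cluster, and the entry was counted once. Whether reads of miR-23a and miR-23b, or of miR-27a and miR-27b, were split between near-identical forms by the counting is not given in the sources used here, which makes the a and b forms less certain than their sums.

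After entries of 1 name with equal counts had been merged, a control library held between 6999830 and 11668822 counts and an HSA library between 2018959 and 8999025. The members had from 292 to 160875 counts in a library, so counting error was small beside the differences between dogs. The labels give no sequencing batch, so a batch that follows the groups cannot be told apart from them. Levels are given as CPM, the counts scaled to a common library total, after edgeR's TMM factors, which correct for a few abundant miRNAs taking up much of a library. A read on a mature miRNA stands for the whole molecule, so no length term enters. Because adapters join some ends more readily than others, the order of levels is that of these libraries.

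The order of the members was the same in both groups. MiR-27b and miR-24 were the most abundant, miR-27a was lower, and miR-23a and miR-23b were the lowest. In control, miR-27b had 14651 ± 2382 CPM (SD, n = 6) and miR-24 had 14273 ± 2140 CPM (SD, n = 6), and miR-27b was above miR-24 in 4 of the 6 libraries, so these neighbors did not differ beyond their spread. In HSA the means were 8657 ± 4016 CPM for miR-27b and 7331 ± 3637 CPM for miR-24 (SD, n = 6), and miR-27b was above miR-24 in 5 of the 6 libraries. Every lower step in the order, from miR-24 to miR-27a, to miR-23a and to miR-23b, held in 6 of 6 libraries of each group.

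The spread between dogs was wider in the tumors for each member. The coefficient of variation of the TMM-normalized CPM was 15.0% to 29.9% over the 5 members among control dogs and 30.8% to 49.6% among HSA dogs. This difference in spread was not tested.

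**Figure D1:**
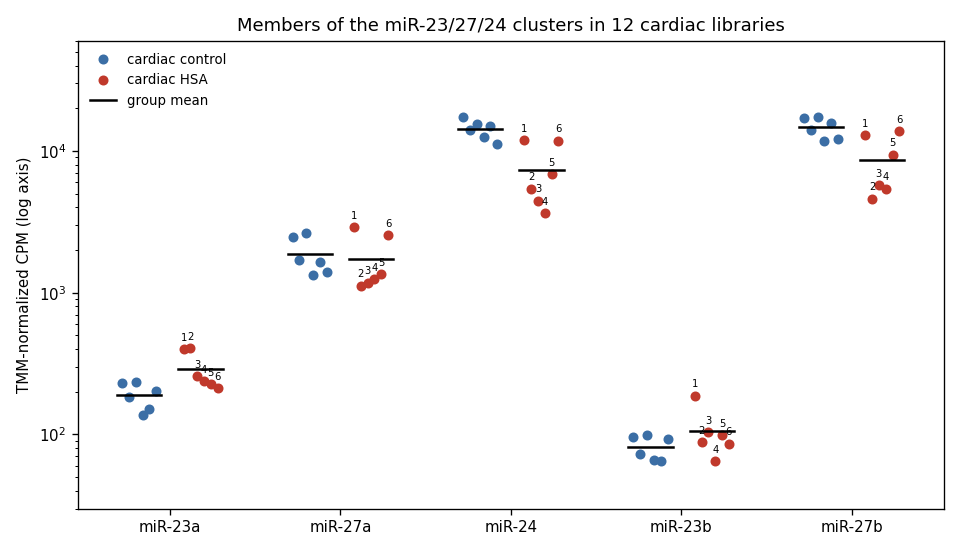
TMM-normalized CPM (log axis) of the 5 members in each library, with control in blue, HSA in red (replicate numbers above the points) and group means as black lines. MiR-24 and miR-27b lie lower in HSA replicates 2 to 5 than in any control library, while HSA replicates 1 and 6 reach into the control range.

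None of the 5 members was called different between HSA and control by edgeR's quasi-likelihood test, where a call needs an adjusted p below 0.01 together with a log2 fold change of 1 or more in size. Over the 225 mature miRNAs tested, 25.8% were called by this rule, 18.7% higher and 7.11% lower in HSA. At an unadjusted p under 0.05, 3 of the 5 members passed, against 53.3% of all miRNAs, and the same 3, miR-23a, miR-24 and miR-27b, had an adjusted p under 0.05, against 45.3% of all. The latter count fell from 3 to 0 without HSA replicate 2 and with the summed muscle miRNAs as a covariate, and it was 1 without HSA replicate 4 or control replicate 2, 4, 5 or 6 and with RLE or upper quartile factors. DESeq2 also called none of the 5, against 24.6% of all. Limma on the deposited CPM called miR-23a higher, as did edgeR with scaling by library size only. In no member did all 6 HSA values lie on 1 side of all control values, which was seen for 15.1% of miRNAs with HSA above and 10.7% with HSA below.

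Among the abundant members, miR-24 and miR-27b had their lower values in the tumors. MiR-24 ran from 11245 to 17214 TMM-normalized CPM in control, with a median of 14510 CPM, and from 3623 to 11848 CPM in HSA, with a median of 6145 CPM. 4 of the HSA libraries were below every control library, and replicates 1 and 6, with 11848 and 11778 CPM, were not. This count depended on the scaling. In the deposited CPM, HSA replicate 2 had 9965 CPM, within the control range of 8814 to 12027 CPM. The log2 fold change of miR-24 was -0.96 (standard error 0.30, adjusted p = 0.0205 from edgeR), short of both limits of the call. Without HSA replicate 6 the log2 fold change was -1.15 (adjusted p = 0.0074), which is a call, in a fit where 8.85% of miRNAs were called lower.

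MiR-27b, the partner of miR-24 in the b cluster, followed the same libraries. It ran from 11712 to 17338 CPM in control, with a median of 14864 CPM, and from 4615 to 13787 CPM in HSA, with a median of 7572 CPM. Again 4 HSA libraries were below every control library, and again replicates 1 and 6 overlapped with control. In the deposited CPM, HSA replicate 5 had 10029 CPM, within the control range of 8808 to 12017 CPM. HSA replicate 1, at 12335 deposited CPM, was above that range. The edgeR estimate was a log2 fold change of -0.76 with a standard error of 0.29 (adjusted p = 0.0465).

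MiR-27a, which shares its seed with miR-27b, followed these libraries only in part. Its TMM-normalized level ran from 1328 to 2638 CPM in control, with a median of 1669 CPM, and from 1121 to 2884 CPM in HSA, with a median of 1293 CPM. Replicates 1 and 6 were the highest of the HSA libraries here too. The HSA range enclosed the control range, with 3 HSA libraries below every control library and 1 above. In the deposited CPM the lowest HSA value, 1286 CPM, was above the lowest control value, 999 CPM. The edgeR estimate, a log2 fold change of -0.12 with a standard error of 0.29 (adjusted p = 0.74), was close to 0, and its sign depended on the scaling. Without HSA replicate 1 it was -0.51 (adjusted p = 0.237).

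The miR-23 forms were the members whose mean was higher in HSA. MiR-23a ran from 137.6 to 232.5 CPM in control, with a median of 193.5 CPM, and from 212.4 to 407 CPM in HSA, with a median of 247.9 CPM. In these TMM-normalized values, 4 of the HSA libraries lay above every control library. The other pair, replicates 5 and 6, lay within the upper part of the control range. EdgeR gave a log2 fold change of 0.61 with a standard error of 0.22 (adjusted p = 0.0417), which was 0.28 (adjusted p = 0.394) without HSA replicate 1. MiR-23b ran from 64.8 to 98.9 CPM in control, with a median of 83.1 CPM, and from 64.5 to 187.9 CPM in HSA, with a median of 93.9 CPM. In edgeR this gave a log2 fold change of 0.36 with a standard error of 0.26 (adjusted p = 0.265). HSA replicate 1, the highest library, decided this sign, since the log2 fold change was -0.13 (adjusted p = 0.667) without it.

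The scaling of the libraries moved all 5 values together. The median log2 fold change of the 225 miRNAs tested was 0.34 with TMM factors and 0.97 with scaling by library size only. Under library size only, miR-23a reached a log2 fold change of 1.27 (adjusted p = 0.00649), a call in a fit where 30.2% of miRNAs were called higher, and that of miR-27a turned to 0.40. The log2 fold changes of miR-24 and miR-27b shrank to -0.43 (adjusted p = 0.165) and -0.26 (adjusted p = 0.31) with library size only, and to -0.48 and -0.26 with limma. With limma on the deposited CPM, where 23.6% were called higher, miR-23a had a log2 fold change of 1.20 (adjusted p = 0.0087). A change of scaling shifts all miRNAs by a similar amount, so distances to the median of all miRNAs change little by construction. MiR-24 lay -1.30 from the median with TMM and -1.41 with library size only, and miR-27b lay -1.10 and -1.24 from it. The distance of miR-27a was -0.46 and -0.57, that of miR-23a 0.27 and 0.30, and that of miR-23b 0.02 and -0.05. Among the 225 miRNAs, 33 had a lower TMM-scaled log2 fold change than miR-24 and 38 than miR-27b, while miR-23b was near the middle, with 113 below it.

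**Figure D2:**
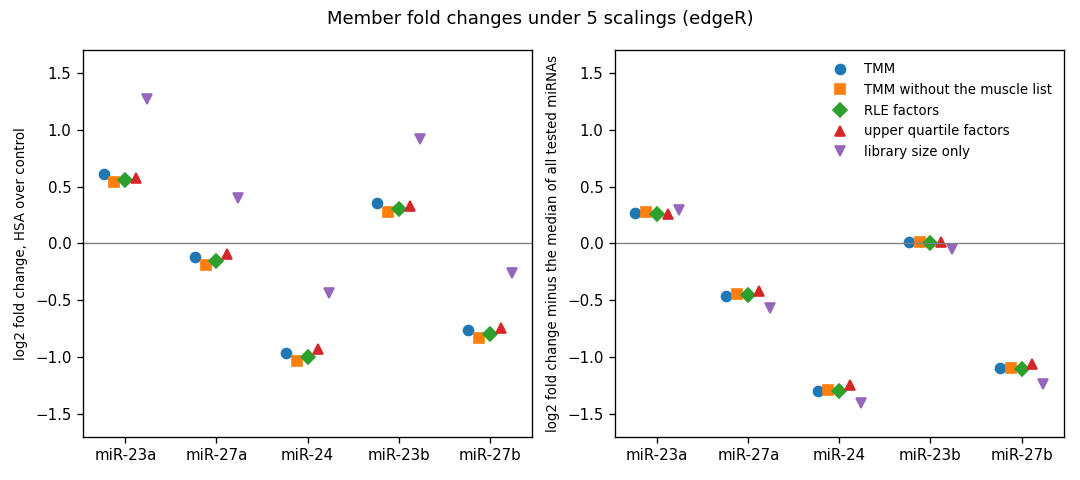
Log2 fold changes of the 5 members, HSA over control, from edgeR under 5 scalings (left), and the same values minus the median of all 225 tested miRNAs (right). The left panel shows scaling by library size lifting every member. The right panel shows distances to the median, from -1.41 for miR-24 to 0.30 for miR-23a. These change little by construction, since a scaling shifts all miRNAs by a similar amount.

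To compare the clusters without any scaling, counts of the members were divided by each other within each library. A ratio in 1 library does not change with its depth or its TMM factor. The number of ratios set was 6, and each difference of means was tested with an exact two-sided permutation test over the 12 libraries, whose smallest possible p is 0.00216, with Benjamini-Hochberg adjustment over the 6. The ratios share members and are not independent of each other.

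The balance of the clusters was shifted toward the a forms in HSA. The log2 ratio of miR-23a plus miR-27a to miR-23b plus miR-27b was -2.87 ± 0.21 (SD, n = 6) in control and -2.08 ± 0.34 (SD, n = 6) in HSA. The control libraries ran from -3.13 to -2.60 and the HSA libraries from -2.59 to -1.62, so the groups did not overlap, though replicate 5, at -2.595, was barely above the highest control value, -2.603. The difference was 0.79 (standard error 0.16, exact permutation p = 0.00216, adjusted p = 0.013), which is 1.73-fold. Because miR-27a and miR-27b outnumber the miR-23 forms, this ratio was mostly theirs.

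The log2 ratio of miR-27a to miR-27b alone was -3.01 ± 0.22 (SD, n = 6) in control and -2.31 ± 0.28 (SD, n = 6) in HSA. Above every control value were 5 of the 6 HSA libraries, and replicate 5, at -2.80, was not. The difference of 0.70 (standard error 0.14, exact permutation p = 0.00649, adjusted p = 0.013) stands for a rise from 0.124 to 0.201 miR-27a reads per miR-27b read, as geometric means. For the miR-23 pair no such shift passed the test. The log2 ratio of miR-23a to miR-23b was 1.21 ± 0.10 (SD, n = 6) in control and 1.49 ± 0.44 (SD, n = 6) in HSA, a difference of 0.29 (standard error 0.19, exact permutation p = 0.188, adjusted p = 0.188). This difference was 0.15 without HSA replicate 2 and 0.078 between medians. HSA replicates 2 and 4, at 2.20 and 1.89, were above every control library, and the other HSA libraries lay between 1.09 and 1.304, within the control range of 1.05 to 1.34. Whether the shift differed between the miR-27 and the miR-23 pair was not tested.

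Within a cluster, the miR-23 form rose relative to its miR-27 partner. In the b cluster, the log2 ratio of miR-23b to miR-27b was -7.49 ± 0.28 (SD, n = 6) in control and -6.31 ± 0.60 (SD, n = 6) in HSA. The control values ran from -7.91 to -7.03 and the HSA values from -7.32 to -5.70, and only HSA replicate 6, the lowest, was not above every control library. The difference of 1.17 (standard error 0.27, exact permutation p = 0.00433, adjusted p = 0.013) is 2.26-fold, the largest of the 6 ratios. In the a cluster, the log2 ratio of miR-23a to miR-27a was -3.27 ± 0.26 (SD, n = 6) in control and -2.51 ± 0.70 (SD, n = 6) in HSA. Above every control value were 4 HSA libraries, and replicate 6, at -3.58, was below every one. The difference was 0.77 (standard error 0.31, exact permutation p = 0.0325, adjusted p = 0.039). Of the 12 tests with a library removed, 9 did not pass an adjusted p of 0.05. The library removed in these was control replicate 1, 2, 3, 4 or 5, or it was HSA replicate 2, 3, 4 or 5, and the adjusted p lay between 0.0545 and 0.0701.

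MiR-24, which either cluster can supply, fell relative to the other members. The log2 ratio of miR-24 to the sum of miR-23a, miR-23b, miR-27a and miR-27b was -0.23 ± 0.11 (SD, n = 6) in control and -0.59 ± 0.25 (SD, n = 6) in HSA, a difference of -0.36 (standard error 0.11, exact permutation p = 0.0108, adjusted p = 0.0162). Below every control value were 5 of the 6 HSA libraries, and replicate 2, at -0.20, was not.

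**Figure D3:**
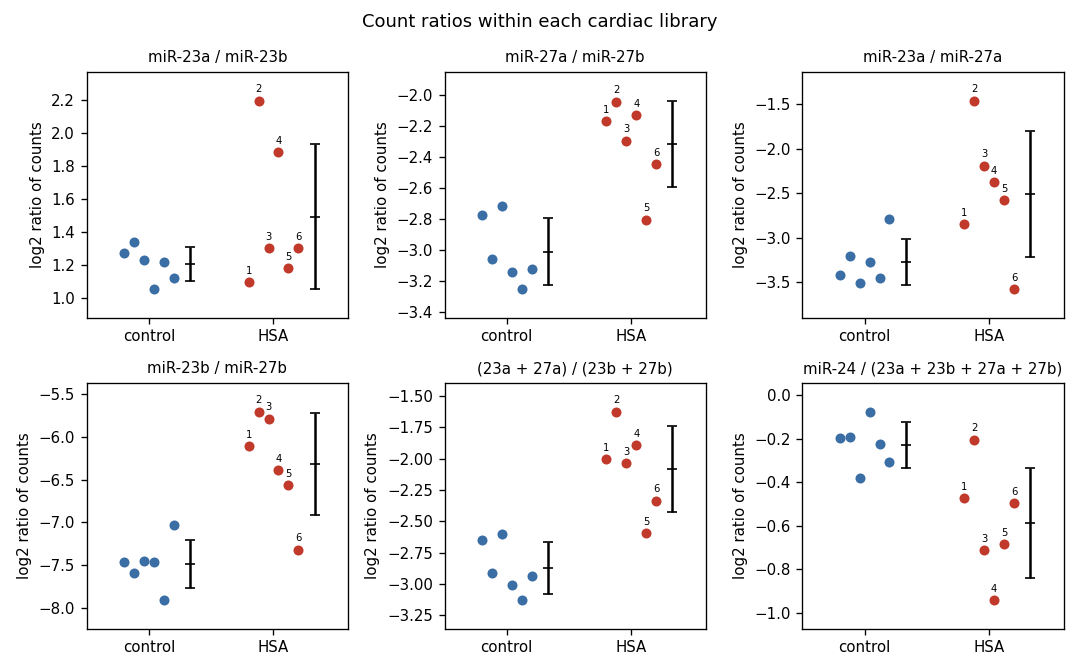
Log2 ratios of counts within each library for the 6 ratios tested, with control in blue, HSA in red (replicate numbers above the points), and the group mean ± SD in black. The ratio of the a to the b cluster separates the groups (-3.13 to -2.60 in control, -2.59 to -1.62 in HSA), and that of miR-23a to miR-23b overlaps (1.05 to 1.34 in control, 1.09 to 2.20 in HSA).

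Of the counts that fell on the 5 members, miR-24 held 46.0% ± 1.81 in control and 40.0% ± 4.20 in HSA, and miR-27b held 47.2% ± 1.37 and 47.8% ± 4.58 (SD, n = 6). MiR-27a held 5.91% ± 0.918 in control and 9.66% ± 1.40 in HSA, miR-23a 0.615% ± 0.115 and 1.89% ± 0.972, and miR-23b 0.267% ± 0.0566 and 0.630% ± 0.199 (SD, n = 6). Of all counts in a library, with 1 entry per mature miRNA, the 5 members together held 2.75% to 3.79% in the control libraries and 1.52% to 3.81% in the HSA libraries. The means, 3.22% and 2.62%, differed by -0.60 percentage points (standard error 0.42, exact permutation p = 0.203). The difference was -0.38 percentage points without HSA replicate 3 or 4, -0.31 with all entries in the total and -1.09 with the muscle miRNAs left out of the total, and none of these passed the test. The 95% Wilson interval of the lowest share, that of HSA replicate 3, was 1.51% to 1.54%, and it covers counting error only, since PCR copies are not independent molecules.

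The muscle content of the libraries varied beside the cluster members. The 8 miRNAs typical of heart and skeletal muscle, among them miR-1 and miR-133a, held 20.2% to 27.9% of the counts of a control library. In an HSA library they held 0.122% to 27.4%, and miR-208a and miR-208b were at 0 in some libraries. MiR-133a and miR-133c, both among the 8, had nearly equal TMM-normalized levels, with means of 73643 CPM in control and 31184 CPM in HSA. The same reads may therefore count under both names in these shares and in the covariate below. None of the 8 passed the call, beside 25.8% of all miRNAs, and miR-1 had a log2 fold change of -1.27 (adjusted p = 0.218 from edgeR). HSA replicates 1 and 6, the tumors with the highest miR-24, miR-27a and miR-27b, had muscle shares of 25.6% and 27.4%, within the control range. HSA replicates 2, 3, 4 and 5 had 5.38%, 0.122%, 5.78% and 14.0%. In whole tissue, fewer cells of a type and less RNA per cell cannot be told apart. With the summed muscle list as a covariate, chosen after its values were seen, the log2 fold changes were -0.68 for miR-24 (adjusted p = 0.0548), -0.51 for miR-27b (adjusted p = 0.121), 0.12 for miR-27a (adjusted p = 0.715), 0.66 for miR-23a (adjusted p = 0.059) and 0.44 for miR-23b (adjusted p = 0.213).

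HSA replicates 1 and 6, singled out after their muscle shares were seen, were above every control library in some of the ratios. The log2 ratio of the a to the b cluster was -2.002 in HSA replicate 1 and -2.34 in HSA replicate 6, and the highest control value was -2.60. That of miR-27a to miR-27b was -2.17 and -2.44 in these libraries, above the highest control value of -2.72. In the b cluster the same libraries parted. The log2 ratio of miR-23b to miR-27b was -6.11 in replicate 1, above every control library, and -7.32 in replicate 6, within the control range. In the a cluster neither was above every control library. There the log2 ratio of miR-23a to miR-27a was -2.85 in replicate 1, within the control range, and -3.58 in replicate 6, below every control library. The part of the muscle content in the ratios was not tested.

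**Figure D4:**
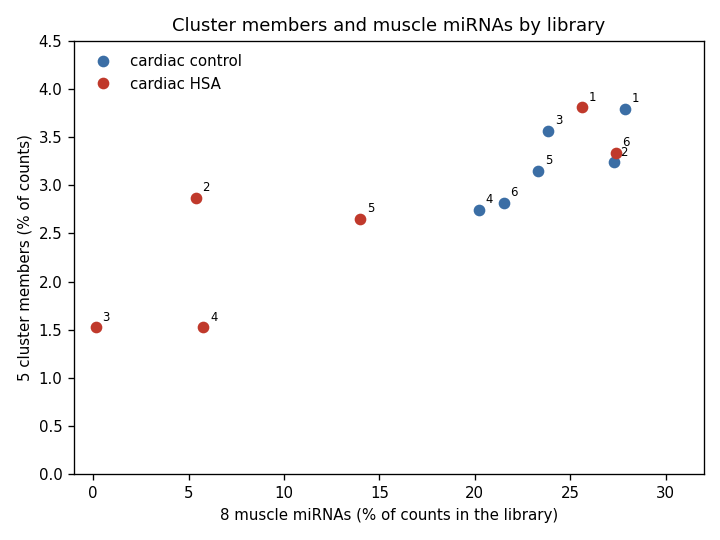
Share of all counts held by the 5 cluster members against the share held by the 8 muscle miRNAs, both in percent, for each library (control in blue, HSA in red, replicate numbers beside the points). HSA replicates 1 and 6 lie among the control libraries, and HSA replicate 3 has the lowest of both shares, 1.52% and 0.122%.

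How closely the members kept their proportions from dog to dog was compared over their pairs. For each pair, the SD of the log2 count ratio was taken within each group, a low SD meaning a steady proportion. In control, the tightest pairs were miR-24 with miR-27b (SD 0.10, n = 6) and miR-23a with miR-23b (SD 0.10, n = 6). In HSA, miR-27a with miR-27b had an SD of 0.28 and miR-24 with miR-27b one of 0.29, whereas miR-23a had an SD of 0.70 with miR-27a, 0.78 with miR-24 and 0.86 with miR-27b (n = 6). Every pair of members had a wider SD in HSA than in control. The miR-23 pair had an SD of 0.44 in HSA, close to the 0.50 of miR-23b with miR-27a. These SDs are a description with no test.

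**Figure D5:**
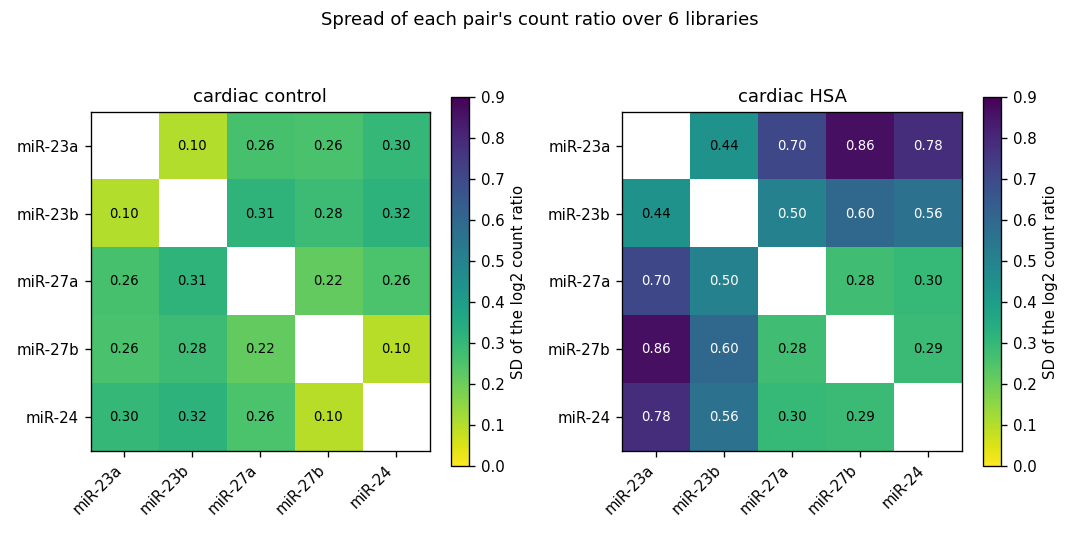
SD of the log2 count ratio of each pair of members over the 6 control libraries (left) and the 6 HSA libraries (right), with darker cells for a wider spread. Every pair had a wider spread in HSA than in control, among them the miR-23 pair, with an SD of 0.10 in control and 0.44 in HSA. The highest SD, 0.86, was that of miR-23a with miR-27b in HSA.

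Among the 224 other miRNAs tested, the closest companions by the SD of the log2 ratio, pooled over both groups, lay both within and outside the clusters. For miR-24 they were miR-22 (SD 0.21), miR-27b (SD 0.21) and miR-504 (SD 0.25), against a median SD of 0.84 over all 224. For miR-27b they were miR-29b, an antifibrotic miRNA that represses collagens (SD 0.20), miR-24 and miR-504 (SD 0.25), and for miR-27a they were miR-27b (SD 0.25), miR-22 (SD 0.25) and miR-24 (SD 0.28). Group means were removed before these SDs were taken, so a close companion need not share the change between the groups. MiR-504 was lower in HSA, as were miR-24 and miR-27b, and it was called, with a log2 fold change of -1.90 (adjusted p = 0.00137 from edgeR). MiR-29b had a log2 fold change of 0.51 (adjusted p = 0.123 from edgeR), beside -0.76 for miR-27b. Whether these changes differ was not tested. For miR-23a the closest were miR-497, of the miR-15/16 family of cell-cycle repressors (SD 0.19), miR-148b (SD 0.29) and miR-106b, a relative of the miR-17-92 cluster that was called higher (SD 0.32). MiR-23b had miR-152 (SD 0.21), its family partner miR-148b (SD 0.27) and miR-497 (SD 0.29) closest, with miR-23a next on its list. Of the 224, miR-27a was the 58th closest to miR-23a, and miR-27b the 38th closest to miR-23b. MiR-24, miR-27a and miR-27b were each within the 6 closest of one another.

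Other miRNAs with roles in endothelium and vessel growth were counted from a list. Of the 19 on it, 18 were found and tested, 8 were called higher in HSA and 0 lower, where 18.7% of all miRNAs were called higher and 7.11% lower, with a median log2 fold change of 1.13 beside 0.34 over all miRNAs. Those called higher were miR-221, the CREB-responsive miR-132, miR-10a, miR-155 and, of the growth-promoting miR-17-92 cluster, miR-18a, miR-19a, miR-19b and miR-20a. MiR-126, the defining miRNA of endothelium, had a log2 fold change of -0.45 (adjusted p = 0.328 from edgeR) and was present in all libraries, at 2371 to 4213 TMM-normalized CPM in control libraries and at 944 to 4295 CPM in HSA libraries. MiR-222, the partner of miR-221, missed the call only by its size, with a log2 fold change of 0.95 (adjusted p = 0.00271). MiR-128, whose seed overlaps with that of miR-27 by a shift of a base, had its 6 HSA values below all control values, with a log2 fold change of -0.44 (adjusted p = 0.0137), and was not called. Of 11 miRNAs tied to fibrosis and TGF-beta signaling, 9 were found and tested, and miR-21, a marker of activated fibroblasts and tumors, was the only one called, higher in HSA, with a list median of 0.33.

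All or most of the tested markers of leukocytes, epithelium and liver were called higher in HSA, and those of erythroid cells moved in both directions. Over all 225 miRNAs tested, 18.7% were called higher and 7.11% lower. The lists were written with earlier results of these data known, and the leukocyte miR-155 is also on the list for vessel growth. The 5 leukocyte miRNAs were all called higher in HSA, with a summed level of 483.5 to 776 TMM-normalized CPM in control and 1283 to 6219 CPM in HSA. Of 8 epithelial miRNAs, 4 passed the filter on low counts and were tested, and 3 were called higher. That filter can be passed through 1 group alone, so the count depends on it in part. The summed levels of the 8 were 9.88 to 23.8 CPM in control and 80.7 to 13773 CPM in HSA. MiR-200a, miR-200b, miR-141, miR-429 and miR-205 were at 0 in some libraries. All 3 liver miRNAs were called higher, and of the 4 erythroid miRNAs miR-144 was called higher and miR-486-3p lower. The summed liver level was 157 to 261 CPM in control and 339 to 216640 CPM in HSA. The summed erythroid level was 22298 to 31727 CPM in control and 6042 to 47677 CPM in HSA, which spans the control range, and the list median was a log2 fold change of -0.26. The part of these cells in the values of the cluster members was not tested.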

How the data were processed

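Small RNA of FFPE heart tissue was sequenced with the NEXTflex kit according to the methods, while the labels name a QIAseq kit. The authors trimmed reads with Cutadapt 4.1, dropped those under 17 nt, aligned them with Bowtie 1.3.1 to CanFam3.1 and counted them with HTSeq 2.0.2 on miRBase 22.1. The deposited raw counts list 517 entries of a mature miRNA and precursor, and the deposited CPM are these counts divided by the column total, recomputed to within 0.00499 CPM. Entries of 1 mature miRNA with equal counts were merged, which left 474 entries. Groups follow the titles. The members and miRNA lists were chosen with earlier results of these data known.

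Counts were tested in R 4.3.3 with edgeR 4.0.16 (quasi-likelihood F test, TMM factors, default filter on low counts, Benjamini-Hochberg adjustment) over 244 entries of 225 mature miRNAs. The call, an adjusted p below 0.01 with a log2 fold change of 1 or more in size, uses the thresholds of the study. Standard errors were obtained as the log2 fold change divided by √F. TMM factors were 0.769 to 0.889 for control libraries and 0.948 to 1.97 for HSA libraries. Alternatives used DESeq2 1.42.0, limma 3.58.1 on log2 of the deposited CPM plus 1, other scalings, filters and entry choices, a replicate block, and fits without each library. Ratios and shares were tested in Python 3.11.15 by exact permutation, with a threshold of 0.05 on the adjusted p. For the SD of ratios, 0.5 was added to each count. The tests were checked on simulated data. Named miRNAs are the 5 members, the 3 closest companions of each, the called members of the lists, and miR-126, miR-221, miR-222, miR-1, miR-133a and miR-128. No library pair of a group agreed within counting noise. P-values judge the differences between the groups against the spread between dogs.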

Additional observations from a re-analysis of the deposited data

Results flagged for a closer look

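HSA replicate 1 stood apart from the other HSA libraries in miR-23b, with 187.9 TMM-normalized CPM beside at most 104.3 CPM in the other 5, a gap of 0.678 of the whole range. Of the 24 sets of 6 libraries examined, for the 5 members, the 6 ratios and the summed share in each group, it was the only one with such a gap, and chance gives about 5% of sets.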

How the results depend on the processing

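The 5 log2 fold changes were recomputed under 13 alternatives that kept all libraries, under the muscle covariate chosen after the data were seen, and with each of the 12 libraries left out. MiR-27b stayed lower and uncalled in all of these, from -1.11 without HSA replicate 1 to -0.26 with library size only or limma, and miR-24 was -0.43 and -0.48 under the latter pair. MiR-23a became a call with library size only (1.27) and with limma (1.20), which made 1 member called in each. MiR-27a changed sign with library size only (0.40), limma (0.44) and the muscle covariate (0.12), and ran from -0.51 to 0.0018 with a library left out, the last without control replicate 3. MiR-24 ran from -1.32 to -0.85 and miR-23b from -0.13 to 0.41 with a library left out, and from 0 to 1 members were called. Same-numbered libraries share only a number: the correlation of their deviations from the group means was over 0.1 in 0 of 6 pairs. With the replicate block, 0 members were called. The ratios kept their values but not their adjusted p under 0.05 in the exact sign-flip test over 6 pairs: 27a to 27b 0.70 (adjusted p = 0.0625), 23a to 27a 0.77 (adjusted p = 0.112), 23b to 27b 1.17 (adjusted p = 0.0938), a to b cluster 0.79 (adjusted p = 0.0625) and miR-24 to the others -0.36 (adjusted p = 0.0625). The smallest p of this test before adjustment is 0.0312. So high a floor leaves it little room to pass 0.05 after adjustment over the 6 ratios. The cause of the changes between the settings was not tested. With a library left out, the ratio of 23a to 27a ran from 0.56 to 0.98, and that of the a to the b cluster from 0.70 to 0.90. The latter and the ratios of 27a to 27b, 23b to 27b and miR-24 to the others stayed past the threshold in all 12, and the ratio of 23a to 23b and the summed share passed in none. The libraries differ in depth, and all HSA libraries but replicate 6 held fewer counts than any control library. Depth therefore could not be fully separated from the groups, and its part in the differences was not tested.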
